A study of Mus musculus with 2 samples.

Results

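The genes described here handle iron, zinc and copper in the mouse kidney. They are the probe sets that the platform annotation gives a single symbol among the zinc transporter families Slc30 and Slc39 or among 19 named genes of iron, heme and metal handling. The rule takes them by name, and it was set with earlier results of these data known. The choice took 83 of 45101 probe sets, which stood for 41 of 18194 genes. Trf and Ftl1 have no probe set with a single symbol and are not analysed here. The EST KO AKI pool held kidney tissue (124 mg) of 6 male EST KO mice, which lack estrogen sulfotransferase (EST, the product of Sult1e1), and the WT AKI pool held kidney tissue (180 mg) of 3 male wild-type mice. A label of the EST KO AKI pool names liver where the others name kidney, and the tissue is taken as kidney here. Mice of both pools were C57BL/6, 8 weeks old, and were killed 24 h after 30 min of warm bilateral renal ischemia, which causes acute kidney injury (AKI), so both pools come from injured kidney. The labels do not say which part of Sult1e1 was disrupted. Each pool was read on 1 array, so the spread between mice is unknown, the number of arrays limits the precision, and no test between genotypes is possible.

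Cells keep these metals within narrow limits because each is needed by enzymes and is toxic when free. Iron enters as transferrin-bound iron through the transferrin receptor or as free ions through Slc11a2, is stored in ferritin, and leaves through ferroportin, while heme oxygenase frees it from heme. Iron regulatory proteins bind the transcripts of several of these genes and set their stability or translation. Zinc is moved out of the cytosol by Slc30 (ZnT) proteins and into it by Slc39 (ZIP) proteins, and zinc, copper and cadmium are bound by metallothioneins, whose genes are switched on by the metal-sensing factor MTF1 through metal response elements. In the kidney, the proximal tubule takes up filtered protein-bound metals, and iron released from heme is a known source of oxidative damage after ischemia.

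The promoters of the 2 metallothionein genes measured are shown because their brightest probe sets had like ratios between the pools, although the other Mt1 probe set did not share the lower level (log2 0.05). The sequences are RefSeq's, build GRCm38.p6, and run from 250 bases before to 50 bases after the annotated start on the plus strand, chr8:94178839-94179138 for Mt1 and chr8:94172368-94172667 for Mt2. Capitals mark the metal response element cores TGCACNC and TGCGCNC, searched on both strands.
Mt1: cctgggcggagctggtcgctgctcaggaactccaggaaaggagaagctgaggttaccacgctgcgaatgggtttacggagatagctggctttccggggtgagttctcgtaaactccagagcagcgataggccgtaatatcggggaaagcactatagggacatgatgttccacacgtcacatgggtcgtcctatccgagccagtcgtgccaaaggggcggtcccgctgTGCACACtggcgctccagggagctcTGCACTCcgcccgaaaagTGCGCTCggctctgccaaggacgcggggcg
Mt2: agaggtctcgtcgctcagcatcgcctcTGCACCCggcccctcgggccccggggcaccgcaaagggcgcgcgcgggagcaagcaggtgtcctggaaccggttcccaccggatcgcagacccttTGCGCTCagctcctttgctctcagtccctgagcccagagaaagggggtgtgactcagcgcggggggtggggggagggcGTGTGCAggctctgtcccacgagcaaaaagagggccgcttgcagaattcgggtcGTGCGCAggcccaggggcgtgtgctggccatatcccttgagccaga
The Mt1 window held 3 matches, the first at position -23 and the others at positions 3 and 21 from the annotated start. The Mt2 window held 4 matches, at positions -223, -128, -50 and 5. The window of Slc30a1, the zinc exporter of the plasma membrane, held 2. No match overlapped another. All positions are counted from the annotated start, and where transcription starts in these pools was not tested. At least 1 match lay in 25.7% of 32851 promoter windows of the same length, so a match is common and describes letters only. Neither window of Fth1 nor the window of Ftl1 held the antioxidant response element core TGACNNNGC, which 12.4% of windows held.

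No gene of the set reached a 2-fold difference between the pools with dim values held at background, though Slc30a2 passed it with no floor (log2 2.12) or a lower background (1.57), Slc30a9 with no floor (1.32), and Hmox1 after centring on the median gene (1.05). Values are the authors' deposited intensities, and a gene was read from its brightest probe set. Background was 638.3 on the EST KO AKI array and 676.1 on the WT AKI array, the level under which 95% of 129 probe sets of mostly silent gene families lay. A value below it was raised to it, and the fold is then the least it can be and is written "at least". Of the 41 genes, 27 lay above background on both arrays, 5 on 1 array and 9 on neither. Of the 32 measured genes of the set, 0 were 2-fold higher in the EST KO AKI pool, against 3.02% of all 7480 measured genes, and 0 were 2-fold lower, against 1.4%.

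At a smaller size, 4 of the 32 were at least 1.5-fold higher, against 8.46% of all measured genes. These were Hmox1, Aco1, Tfrc and Slc30a2. A further 5 of the 32 were at least 1.5-fold lower, against 7.43% of all measured genes: Slc39a10, Cp, Slc39a6, Blvrb and Slc39a7. The limit of 1.5-fold was applied to these genes after their values were seen. With a pseudocount, which shrinks the ratios of dim genes, 3 were higher and 1 was lower by that much. With the mean of a gene's probe sets, 3 were higher and 3 lower. When probe sets with the name suffixes _s, _x or _a, which may detect more than a single transcript, were dropped, 4 were higher and 3 lower. Under quantile normalization 3 were higher and 4 lower, with Tfrc (log2 0.52) and Slc39a7 (-0.58) short of 1.5-fold. Among the 27 genes above background on both arrays, 8 were higher and 19 lower in the EST KO AKI pool, and the median log2 ratio was -0.21. All 6115 genes above background on both arrays split into 2738 higher and 3377 lower, and their median was -0.05.

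**Figure D1:**
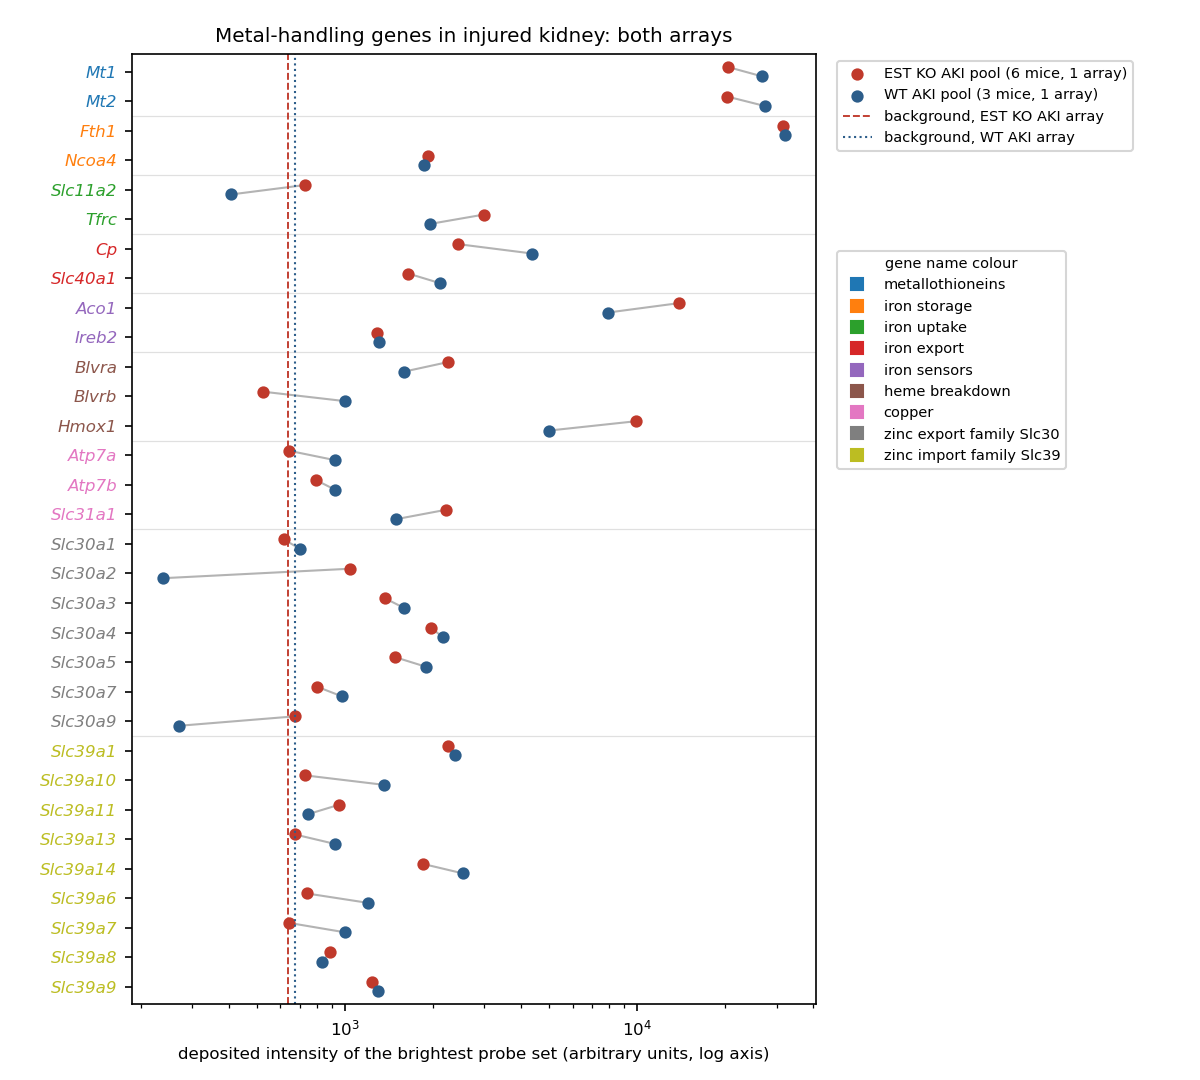
Deposited intensity (log axis) of the brightest probe set of each measured gene in the EST KO AKI pool (red) and the WT AKI pool (blue), 1 array each, grouped by role; vertical lines are the background of each array. Hmox1 and Aco1 lie to the right in the EST KO AKI pool, Cp and Slc39a10 to the left, and the Fth1 points nearly coincide at 31584 and 31970.

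The metallothioneins Mt1 and Mt2, small cysteine-rich proteins that bind zinc and copper, were both lower in the EST KO AKI pool at their brightest probe sets. Mt1 read 20381 in the EST KO AKI pool and 26771 in the WT AKI pool, 1.31-fold lower. Mt2 read 20257 in the EST KO AKI pool and 27242 in the WT AKI pool, 1.34-fold lower. By the suffix of its name, the Mt1 probe set may detect more than a single gene. The other Mt1 probe set read 698.1 in the EST KO AKI pool and 599.7 in the WT AKI pool, the WT value below background, with a log2 ratio of 0.05. Mtf1, the factor that drives both genes, read 809.3 in the EST KO AKI pool and 655.7 in the WT AKI pool, the WT value below background.

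Ferritin and its release factor were nearly level between the pools. Fth1, the ferritin heavy chain that oxidises and stores iron, read 31584 in the EST KO AKI pool and 31970 in the WT AKI pool, 1.01-fold lower. Its second probe set read 28041 in the EST KO AKI pool and 30024 in the WT AKI pool. The sign of the Fth1 ratio turned with the scaling (log2 0.15 under quantile normalization, 0.03 after centring on the median gene). Ncoa4, the receptor that delivers ferritin to lysosomes for iron release, read 1924 in the EST KO AKI pool and 1862 in the WT AKI pool, 1.03-fold higher, and its other probe set read 2011 in the EST KO AKI pool and 1689 in the WT AKI pool.

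The iron regulatory proteins differed in their pattern. Aco1, which is cytosolic aconitase when it carries an iron-sulfur cluster and an RNA-binding iron sensor (IRP1) when it does not, read 13895 in the EST KO AKI pool and 7929 in the WT AKI pool, 1.75-fold higher. A second Aco1 probe set read 2385 in the EST KO AKI pool and 1263 in the WT AKI pool, 1.89-fold higher, so both measured probe sets went the same way. Ireb2 (IRP2), a sensor that is degraded when iron is plentiful, read 1291 in the EST KO AKI pool and 1304 in the WT AKI pool, and its ratio changed sign after centring (log2 0.03) and quantile normalization (0.0044). Whether these ratios differ beyond the spread between mice cannot be tested with these arrays.

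Of the 2 iron uptake genes that could be measured, Tfrc was higher in the EST KO AKI pool. For Slc11a2 only a small lower bound of log2 0.11 can be given. Tfrc, the transferrin receptor, read 2987 in the EST KO AKI pool and 1947 in the WT AKI pool, 1.53-fold higher. Its second measured probe set was 1.25-fold higher, at 1213 in the EST KO AKI pool and 969.0 in the WT AKI pool. The log2 ratio of Tfrc was 0.62, but 0.47 with a pseudocount and 0.47 with the mean of its probe sets, both under 1.5-fold. The other 4 probe sets of Tfrc, among them the array's 3 control probe sets for this transcript, lay below background in both pools. Slc11a2, the divalent metal transporter DMT1, read 728.5 in the EST KO AKI pool and 406.6 in the WT AKI pool, the WT value below background, and was at least 1.08-fold higher (log2 0.84 with no floor). Its other 3 probe sets lay below background in both pools. Steap3, a ferric reductase of endosomes, lay below background in both pools, at 296.6 in the EST KO AKI pool and 363.6 in the WT AKI pool.

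Both genes of iron export were lower in the EST KO AKI pool. Cp, ceruloplasmin, a copper oxidase that loads exported iron onto transferrin, read 2428 in the EST KO AKI pool and 4367 in the WT AKI pool. Of its 8 probe sets, 4 were measured, and all 4 were lower. The next brightest read 833.5 in the EST KO AKI pool and 1165 in the WT AKI pool, 1.40-fold lower. It is the brightest left when probe sets with the name suffixes _s, _x or _a are dropped (log2 -0.48, against -0.85). The brightest Cp probe set has the suffix _a, which marks transcripts of the same gene. The mean over the measured probe sets was -0.55. Slc40a1, ferroportin, the only known iron exporter of mammalian cells, read 1648 in the EST KO AKI pool and 2106 in the WT AKI pool, 1.28-fold lower. Its second probe set read 1407 in the EST KO AKI pool and 1630 in the WT AKI pool, 1.16-fold lower. Ferroportin is also a gene of macrophages. The macrophage marker list was chosen with earlier results of these data known. It was lower in the EST KO AKI pool for 6 of 7 measured genes, against 54.6% of all measured genes. The sum over all 11 markers on the array, dim ones included, was 9678 in the EST KO AKI pool and 14989 in the WT AKI pool. The defining macrophage marker Adgre1 read 563.8 in the EST KO AKI pool and 664.5 in the WT AKI pool, below background in both. The part of macrophages in the Slc40a1 and Cp values was not tested. In tissue pools like these, fewer cells of a type and less RNA per cell cannot be told apart.

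The steps of heme breakdown did not move together. Hmox1, the inducible heme oxygenase that opens heme to biliverdin, iron and carbon monoxide, read 9930 in the EST KO AKI pool and 4967 in the WT AKI pool, 1.999-fold higher, which is just under the 2-fold limit. It ranked at position 227 of 7480 measured genes from the highest ratio, directly below the 226 genes at or above 2-fold. Centring on the median gene took it past 2-fold (log2 1.05), but its log2 ratio fell to 0.82 under quantile normalization and 0.91 with a pseudocount. Blvra, which reduces biliverdin to bilirubin, read 2245 in the EST KO AKI pool and 1595 in the WT AKI pool, 1.41-fold higher. Blvrb, a reductase of flavins and of a fetal form of biliverdin that is abundant in red blood cells, read 523.5 in the EST KO AKI pool, below background, and 997.7 in the WT AKI pool, and was at least 1.56-fold lower (log2 -0.93 with no floor or with the 75th percentile as background). Each of these genes is read by 1 probe set, so no second reading exists. Red blood cell markers gave little signal: 1 of the 6 on the array was measured, and the globin Hba-a1 read 427.9 in the EST KO AKI pool and 597.5 in the WT AKI pool, below background in both.

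**Figure D2:**
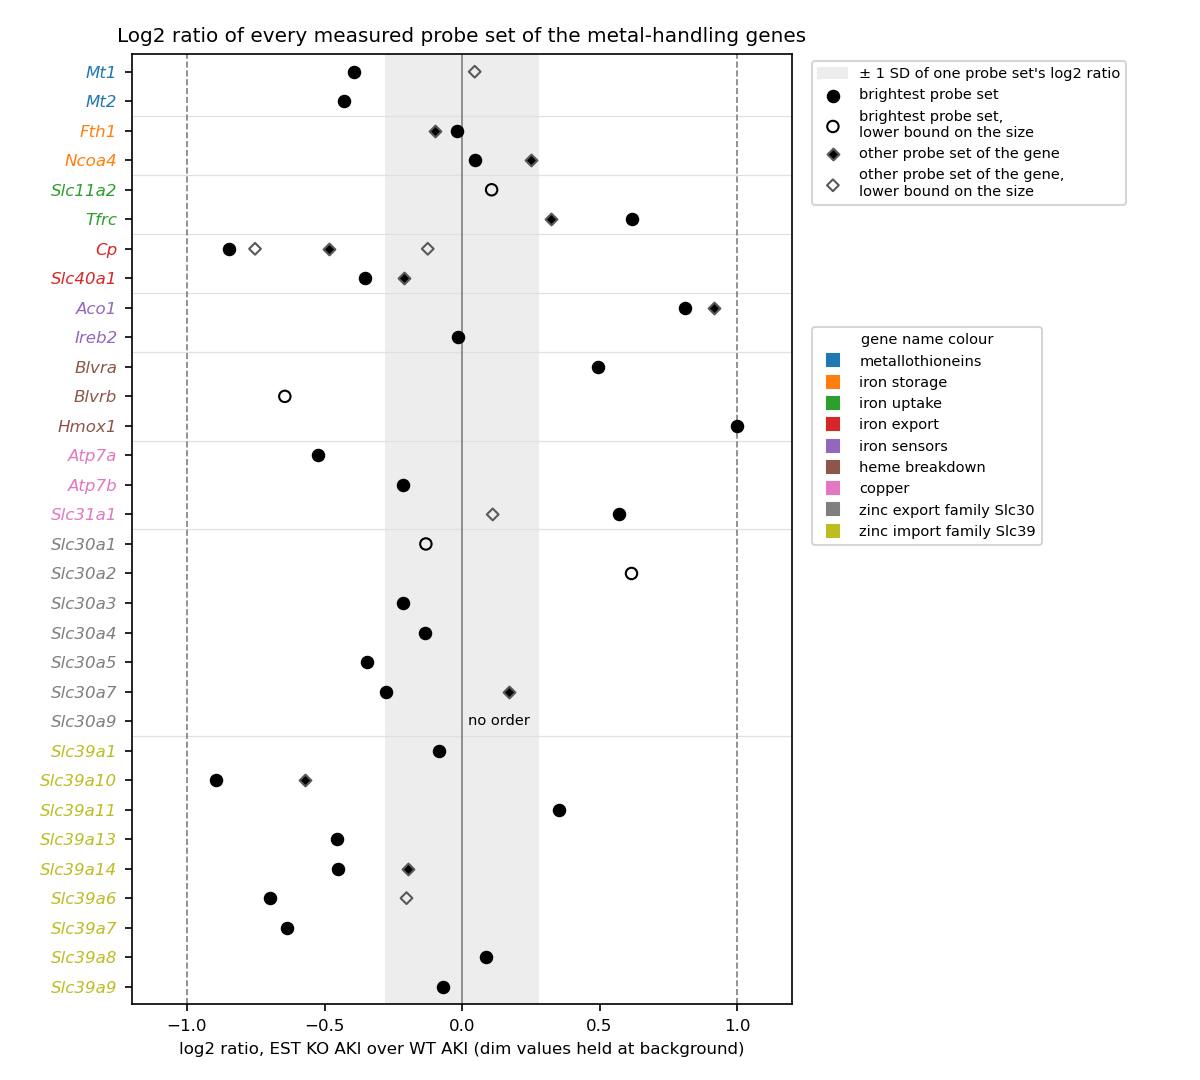
Log2 ratio (EST KO AKI over WT AKI) of every measured probe set of the metal-handling genes; circles are the brightest probe set of a gene, diamonds its other probe sets, open marks are lower bounds on the size, and the grey band is the SD of 0.28 of a single probe set's log2 ratio. Both measured probe sets of Aco1, Tfrc, Slc40a1, Slc39a10 and Slc39a14 lie on the same side of 0, as do the 4 of Cp, while those of Mt1 and Slc30a7 lie on opposite sides.

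Among copper transporters, the importer was higher and the exporters were lower in the EST KO AKI pool. Slc31a1 (CTR1), the main copper importer, read 2222 in the EST KO AKI pool and 1496 in the WT AKI pool, 1.49-fold higher, and its dimmer probe set read 730.5 in the EST KO AKI pool and 408.1 in the WT AKI pool, the WT value below background. Atp7a, the copper pump mutated in Menkes disease, read 641.7 in the EST KO AKI pool and 923.4 in the WT AKI pool, 1.44-fold lower, and the EST KO value lay barely above background. Atp7b, the copper pump mutated in Wilson disease, read 796.7 in the EST KO AKI pool and 924.0 in the WT AKI pool, 1.16-fold lower. The Atp7b ratio (log2 -0.21) lies within the SD of 0.28 between probe sets of a gene, and those of Slc31a1 (0.57) and Atp7a (-0.53) lie outside it. That SD comes from probe sets read on the same arrays, so it does not measure the spread between mice or pools.

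The zinc exporters of the Slc30 family differed little, apart from Slc30a2. Of 10 genes, 7 were measured, of which 5 were lower (against 54.6% of all measured genes), 1 was higher and 1 had no order. Slc30a2 (ZnT2), which loads zinc into vesicles, read 1037 in the EST KO AKI pool and 238.6 in the WT AKI pool, the WT value below background, and was at least 1.53-fold higher. Its ratio depends on how dim values are treated: log2 0.62 with the floor, 1.57 with the 75th percentile as background and 2.12 with no floor. Slc30a9, a mitochondrial member, read 674.5 in the EST KO AKI pool and 271.0 in the WT AKI pool; its EST KO value lies under the WT background level, so the pair has no order (log2 0.95 with the 75th percentile as background and 1.32 with no floor).

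The other 5 measured exporters were lower by 1.10-fold to 1.27-fold in the EST KO AKI pool. Slc30a1 (ZnT1), the plasma membrane exporter and a known MTF1 target, read 616.2 in the EST KO AKI pool, below background, and 699.2 in the WT AKI pool, at least 1.10-fold lower. Slc30a5 (ZnT5), which supplies zinc to enzymes of the secretory pathway, read 1488 in the EST KO AKI pool and 1890 in the WT AKI pool, 1.27-fold lower. Slc30a3 (ZnT3), known for filling synaptic vesicles with zinc in neurons, read 1368 in the EST KO AKI pool and 1587 in the WT AKI pool, 1.16-fold lower. Slc30a4 (ZnT4), a vesicle transporter, read 1971 in the EST KO AKI pool and 2161 in the WT AKI pool, 1.10-fold lower. The probe sets of Slc30a7 (ZnT7), a Golgi transporter, disagreed, at 803.8 and 832.5 in the EST KO AKI pool against 973.8 and 740.3 in the WT AKI pool, in the same order of probe sets. Slc30a6, Slc30a8 and Slc30a10 lay below background in both pools.

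The zinc importers of the Slc39 family were mostly lower in the EST KO AKI pool. Of 14 genes, 9 were measured, each of them above background on both arrays, and 7 of these were lower and 2 higher. Their median log2 ratio was -0.45, against -0.05 for all genes above background on both arrays, of which 55.2% were lower. No member of the family changed sign under any alternative in which it could be read. Several alternatives could not change a sign here. No floor, the lower background and the limit to genes above background on both arrays leave these ratios as they were. Dropping probe sets by name suffix left the ratios of the members still read unchanged. The other 5, Slc39a2, Slc39a3, Slc39a4, Slc39a5 and Slc39a12, lay below background in both pools.

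Slc39a10 (ZIP10), a plasma membrane importer expressed in kidney tubules, was among the genes with the lowest ratios of the metal set. It read 729.6 in the EST KO AKI pool and 1356 in the WT AKI pool, 1.86-fold lower, and ranked at position 155 of 7480 from the lowest. Its second probe set read 695.2 in the EST KO AKI pool and 1032 in the WT AKI pool, 1.48-fold lower. With a pseudocount its log2 ratio was -0.57, against -0.89. Slc39a6 (ZIP6), its close relative and known partner at the plasma membrane, read 739.1 in the EST KO AKI pool and 1198 in the WT AKI pool, 1.62-fold lower. A dimmer Slc39a6 probe set read 273.0 in the EST KO AKI pool, below background, and 734.2 in the WT AKI pool, at least 1.15-fold lower, so both relatives were lower on each measured probe set.

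Slc39a7 (ZIP7), which releases zinc from the endoplasmic reticulum, read 644.9 in the EST KO AKI pool, close to background, and 1002 in the WT AKI pool, 1.55-fold lower. Slc39a7 has only 1 probe set, which by the suffix of its name may detect more than a single gene. Its log2 ratio was -0.64, but -0.39 with a pseudocount and -0.58 under quantile normalization, both short of 1.5-fold. Slc39a13 (ZIP13), of the early secretory pathway, read 671.9 in the EST KO AKI pool and 920.8 in the WT AKI pool, 1.37-fold lower. Slc39a14 (ZIP14), which carries free iron and manganese as well as zinc and is induced in the liver in inflammation, read 1847 in the EST KO AKI pool and 2526 in the WT AKI pool, 1.37-fold lower. Its second measured probe set read 798.3 in the EST KO AKI pool and 914.3 in the WT AKI pool, 1.15-fold lower. The remaining members were within the SD between probe sets or slightly above it. Slc39a1 (ZIP1) read 2253 in the EST KO AKI pool and 2387 in the WT AKI pool, 1.06-fold lower, and Slc39a9 (ZIP9) 1237 in the EST KO AKI pool and 1297 in the WT AKI pool, 1.05-fold lower. Slc39a8 (ZIP8), the closest relative of ZIP14, read 885.7 in the EST KO AKI pool and 833.5 in the WT AKI pool, 1.06-fold higher. Slc39a11 (ZIP11) read 950.3 in the EST KO AKI pool and 745.0 in the WT AKI pool, 1.28-fold higher, the largest ratio above 0 in the family.

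**Figure D3:**
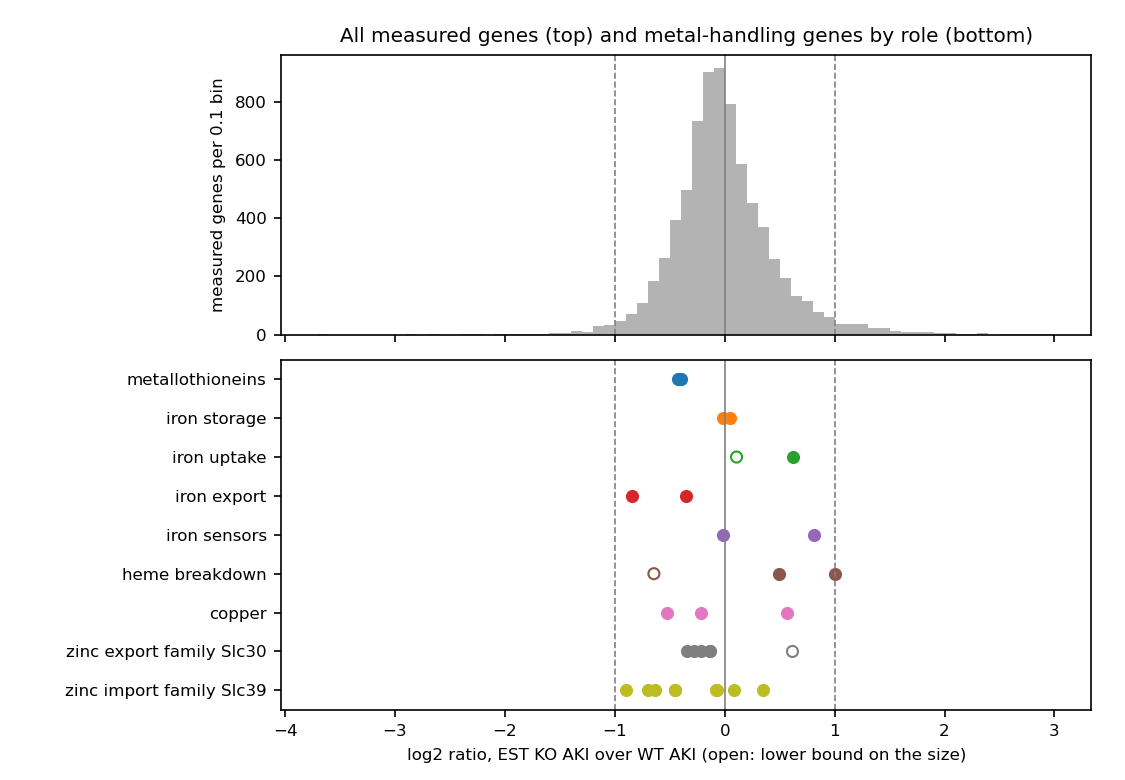
Log2 ratios (EST KO AKI over WT AKI) of all 7480 measured genes as counts per bin of 0.1 (top) and of the metal-handling genes by role (bottom); open circles are lower bounds on the size, and dashed lines mark 2-fold. The metal-handling genes lie within the 2-fold lines, with Hmox1 at the upper line and 7 of 9 Slc39 genes below 0.

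The spread between different probe sets for the same transcript is the one measure of error in these arrays. It does not cover differences between mice, pools or arrays, which all probe sets of a gene share. Over 1663 genes with 2 probe sets above background on both arrays, the SD of the log2 ratio of a single probe set was 0.28, and 2.35% of genes had probe sets more than 1 apart. Of the 83 probe sets of the metal genes, 46 were above background on at least 1 array. Of these, 16 were higher, 29 lower and 1 without an order in the EST KO AKI pool (by gene, 54.6% of all measured genes were lower). The 37 probe sets below background in both pools read from 7.4 to 628.0 in the EST KO AKI pool and from 8.8 to 626.8 in the WT AKI pool, and no fold is given for them.

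Of the other genes of iron, copper and zinc handling, 24 of 43 measured were higher and 19 lower in the EST KO AKI pool. Their median log2 ratio was 0.06. Over all measured genes, 43.6% were higher and 54.6% lower, and the median was -0.05. Of the 76 genes listed, 71 are on the array. At 2-fold, 4 were higher and 3 lower, against 3.02% and 1.4% of all measured genes. This list was written with earlier results of these data known, so its counts are descriptions and no independent comparison. The copper-zinc superoxide dismutases Sod1 and Sod3 and the Sod1 chaperone Ccs were higher in the EST KO AKI pool. Sod3, the extracellular copper-zinc enzyme, read 6602 in the EST KO AKI pool and 2341 in the WT AKI pool (2.82-fold), and Ccs, the chaperone that hands copper to Sod1, read 1950 in the EST KO AKI pool and 960.1 in the WT AKI pool (2.03-fold). Sod1 itself was 1.47-fold higher and the copper chaperone Atox1 1.44-fold higher. Among copper enzymes that went the other way, Dbh, which makes noradrenaline, read 573.3 in the EST KO AKI pool, below background, and 1386 in the WT AKI pool, at least 2.17-fold lower, and Loxl1, which cross-links elastin, was 1.58-fold lower. The copper list also holds Mtf2, a chromatin protein that does not handle copper; it was counted and read 1.30-fold lower.

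The endocytic receptors of the proximal tubule that are on the iron list were higher in the EST KO AKI pool. Cubn, cubilin, which binds filtered transferrin, read 2968 in the EST KO AKI pool and 1066 in the WT AKI pool (2.79-fold), and its partner receptor Lrp2 was 1.93-fold higher. Lcn2, which binds iron through siderophores and is a tubular injury marker, read 16994 in the EST KO AKI pool and 35378 in the WT AKI pool (2.08-fold lower). Bola2, which helps deliver iron-sulfur clusters in the cytosol, read 728.3 in the EST KO AKI pool and 1764 in the WT AKI pool (2.42-fold lower). Abcg2, an exporter of urate and porphyrins, was 1.62-fold higher and the mitochondrial transporter Abcb8 1.53-fold higher. Of the zinc genes, Alpl, the tissue-nonspecific alkaline phosphatase, a zinc enzyme, read 3828 in the EST KO AKI pool and 1078 in the WT AKI pool (3.55-fold higher), and Trpm7, a channel for zinc and magnesium, was 1.51-fold higher. Of the 5 measured enzymes of heme synthesis on the iron list, Alad was 1.49-fold and Urod 1.34-fold higher, while Alas1, the first enzyme of the path, was 1.11-fold, Cpox 1.08-fold and Fech 1.01-fold lower.

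**Figure D4:**
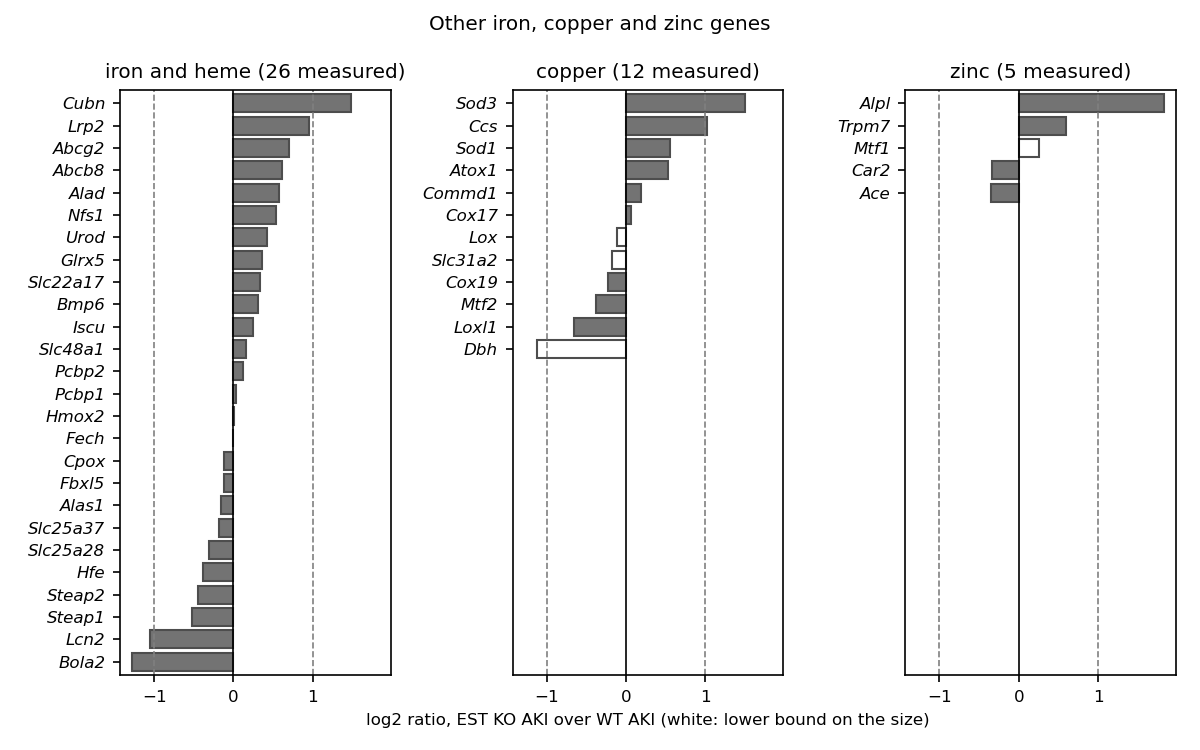
Log2 ratio (EST KO AKI over WT AKI) of the measured genes of the lists of other iron and heme (26), copper (12) and zinc (5) genes, 1 array per pool; white bars are lower bounds on the size and dashed lines mark 2-fold. Cubn, Sod3, Ccs and Alpl lie above the upper 2-fold line, and Bola2, Lcn2 and Dbh below the lower one.

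Markers of cell types and of injury also differed between the pools. The marker lists were chosen with earlier results of these data known, so their counts are descriptions and no test. Lrp2, Cubn and Lcn2 are also on the iron list above, so their values are not a second reading. Of all measured genes, 43.6% were higher in the EST KO AKI pool and 54.6% lower. All 9 proximal tubule markers measured were higher in the EST KO AKI pool, with summed values of 113370 in the EST KO AKI pool and 73665 in the WT AKI pool, and 4 of 4 measured injury markers were lower; the sum over all 5 on the array was 46964 in the EST KO AKI pool and 86621 in the WT AKI pool. All 3 measured neutrophil markers were lower, and the sum over all 6 on the array was 3373 in the EST KO AKI pool and 5480 in the WT AKI pool. Their part in the metal-gene values was not tested. A label of the EST KO AKI pool names liver where the others name kidney; of 9 hepatocyte markers on the array 4 were measured, 2 higher and 2 lower in the EST KO AKI pool. Ttr, transthyretin, read 11957 in the EST KO AKI pool and 1716 in the WT AKI pool, 6.97-fold higher, and Fgb, a fibrinogen chain, read 7.5 in the EST KO AKI pool, below background, and 1284 in the WT AKI pool, at least 2.01-fold lower. Alb, serum albumin, read 522.3 in the EST KO AKI pool and 487.9 in the WT AKI pool, below background in both. The part of liver RNA in the metal-gene values was not tested. Sult1e1 read 17.2 in the EST KO AKI pool and 472.7 in the WT AKI pool, both below background, so it does not check the genotype.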

How the data were processed

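The values are the intensities that the authors deposited, a linear value for every probe set. From the values, each array had been scaled to a mean of 500 after the lowest and highest 2% were dropped. This was done with scanner software and a probe summary not given in the sources used here. Array medians were 242.4 (EST KO AKI) and 261.8 (WT AKI), and the scaling was kept. Names come from GEO's platform annotation, in which 34958 probe sets had 1 symbol, 932 several and 9211 none, and only the first kind was named. RefSeq's GRCm38.p6 table, joined on Entrez ID, gave 34754 of them a current symbol. Background, floor, measured genes and the 2-fold limit are as given above; ratios are log2, EST KO AKI over WT AKI. With 1 array per genotype no test was run. The genes, the lists and the limits were chosen with earlier results of these data known. All measured genes of the set are named, and of the other metal genes those at least 1.5-fold apart; Sod1, Atox1, Alad, Urod, Alas1, Cpox, Fech, Mtf1, Mtf2 and the cell type markers are exceptions, picked with their values in view. RefSeq's promoter table held 34 of the 41 genes. Python 3.11.15, pandas 2.3.3 and numpy 2.4.6 were used, and the ratio code was tested on simulated data. A total of 8 alternatives were tried.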

Additional observations from a re-analysis of the deposited data

How the results depend on the processing

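Counts of genes at least 2-fold apart depended on how dim values were treated. In the metal set, 2 genes were at least 2-fold higher in the EST KO AKI pool with no floor (Slc30a2 and Slc30a9), 1 with the 75th percentile as background (Slc30a2) and 1 after centring on the median gene (Hmox1), against 0 with the floor; 0 were 2-fold lower under any of the 8 alternatives. Of the other metal genes, 1 was 2-fold lower with a pseudocount and 1 with the mean of probe sets, against 3. Over all measured genes, 197 were 2-fold lower with no floor, 204 with the 75th percentile as background and 43 with a pseudocount, against 105, and 124 were 2-fold higher with a pseudocount, against 226. The median of the metal genes lay between -0.21 and -0.08. Of 248 ratios of single metal genes recomputed, 235 moved by less than the SD between probe sets or not at all, 13 by more, and 5 changed sign. The sign changes were Fth1 and Ireb2 under both scalings and Mt1 without the probe set that may detect more than a single gene. Many of the 235 could not move. Limiting the set to genes above background on both arrays returns the same ratios. No floor and the lower background leave those genes unchanged. Centring only subtracts the median of -0.05 from every ratio. The count of 235 is therefore no measure of stability. The 1.5-fold counts were added after seeing the data. No paired analysis was possible because each genotype has 1 array. No replicate could be left out, and the ratio of genes near background is limited by the signal over it.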
